A study of Mus musculus with 4 samples.

Results

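The cytotoxic effector genes of lymphocytes were examined as a set of 10 genes, chosen by name: the granzymes Gzma, Gzmb and Gzmk, the perforin gene Prf1, the granule protein gene Nkg7, the ligand genes Ifng and Fasl, the receptor gene Klrk1, and the transcription factor genes Tbx21 and Eomes. All 10 were measured among the 32285 genes of the data. The cells were CD45-positive cells, that is leukocytes including microglia, of the hippocampus (HPC) and the thalamus. The mice had the label genotype C57B6/J and the label treatment cortical brain injury, which in the methods of the study is a unilateral aspiration of the sensorimotor cortex. Every mouse was injured and the labels name no transgene, so the study compares 2 brain regions of injured mice, with no uninjured control. Single-cell RNA sequencing (scRNA-seq) with the 10x Genomics 3′ protocol was run on cells of 4 mice pooled for each region. The 8 deposited matrices also hold counts of 12 DNA tags (Cell Multiplexing Oligos), and in each matrix 1 tag led in 99.9% to 100% of the cells. Each matrix was therefore read as the cells of 1 mouse, tagged before pooling and called a tagged set, although no label says so. The mice were 12 weeks old, and the thalamic microglia of these scRNA-seq data are described as taken 21 days after injury. The methods name females for most experiments.

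Cytotoxic lymphocytes kill by releasing granules toward a bound target. Perforin opens the target membrane, granzymes are serine proteases that enter and cut proteins in the target cell, and NKG7 is a membrane protein of the granules. Interferon gamma, encoded by Ifng, is a secreted cytokine that activates macrophages and microglia, and FAS ligand, encoded by Fasl, triggers death through the receptor FAS. NKG2D, encoded by Klrk1, is an activating receptor for stress-induced ligands, and T-bet (Tbx21) and EOMES are related T-box transcription factors that direct the programme in natural killer (NK) and CD8 T cells.

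Gzma and Gzmk are neighbours on chromosome 13, both on the minus strand and 70.6 kb apart (GRCm38, GENCODE M21: Gzma chr13:113093825-113100981, Gzmk chr13:113171608-113225908), and they are shown together because their levels ran opposite ways in NK- and CD8-gated cells, described below. Nkg7 lies on the plus strand at chr7:43437073-43438249 and is shown because its levels in these 2 classes overlapped. The sequences are the 250 bases before the RefSeq start of each gene (GRCm38.p6), read 5′ to 3′ on the strand of the gene, and capitals mark the T-box motif GGTGTGA.
Gzma, chr13:113100982-113101231, minus strand: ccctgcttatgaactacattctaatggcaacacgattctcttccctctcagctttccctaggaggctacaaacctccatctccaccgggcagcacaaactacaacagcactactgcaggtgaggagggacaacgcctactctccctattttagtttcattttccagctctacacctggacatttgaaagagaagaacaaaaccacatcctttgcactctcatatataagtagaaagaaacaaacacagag
Gzmk, chr13:113180966-113181215, minus strand: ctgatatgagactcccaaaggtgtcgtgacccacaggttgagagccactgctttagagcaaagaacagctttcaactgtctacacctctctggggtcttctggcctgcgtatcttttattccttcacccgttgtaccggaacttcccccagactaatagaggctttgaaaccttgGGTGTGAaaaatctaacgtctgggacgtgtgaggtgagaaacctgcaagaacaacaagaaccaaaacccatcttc
Nkg7, chr7:43436888-43437137, plus strand: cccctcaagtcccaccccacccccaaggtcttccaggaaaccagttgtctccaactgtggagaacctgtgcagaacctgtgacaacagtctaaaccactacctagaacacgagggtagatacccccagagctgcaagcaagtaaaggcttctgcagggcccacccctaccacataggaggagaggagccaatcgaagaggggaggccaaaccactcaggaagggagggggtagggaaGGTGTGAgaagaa
The motif GGTGTGA, or TCACACC for the other strand, was searched from 250 bases before to 50 bases after each start. It was present in 2 of the 10 members, Gzmk and Nkg7, starting 75 and 13 bases before the start (positions -75 and -13). The same letters were in 1307 of 32851 RefSeq promoters of this length (3.98%). The window of Gzmk and the end of that of Nkg7 lie within the longer GENCODE gene models. Of the other members, Gzmb is at chr14:56258838-56262260 (minus), Prf1 at chr10:61297833-61304680 (plus), Ifng at chr10:118441046-118445892 (plus), Fasl at chr1:161780689-161788495 (minus), Klrk1 at chr6:129610323-129623864 (minus), Tbx21 at chr11:97098071-97115331 (minus) and Eomes at chr9:118478212-118486132 (plus). Gzmk overlaps Esm1 and Eomes overlaps Gm33460 on the opposite strand.

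After filtering, 24939 of 29190 cells were kept, with a median of 4261.5 to 4657 unique molecular identifiers (UMIs, molecules counted once) per cell in the 8 sets. No cell barcode occurred in 2 sets of a region, and 65 occurred in sets of different regions. HPC set 1 held 5389 cells, the most of any set, and kept 80.5% of its cells in filtering against 92.9% to 95.6% in the other HPC sets. Thalamus and HPC cells were run as 1 library each, and the effect of a region cannot be told apart from that of its library. All intervals given below are exact 95% intervals and cover counting error only.

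Lymphocytes were gated by marker genes that include none of the 10 members. The gate for T and NK cells (T/NK) took 3067 cells, 1798 from the thalamus and 1269 from the HPC. Among them, 142 cells fell in the NK gate (Ncr1, Klrb1c or Klre1 with almost no CD3 genes, which would also take type 1 innate lymphoid cells), 206 in the CD8 gate, 936 in the gamma-delta gate (Trdc with CD3 genes), 733 in the CD4 gate (Foxp3 not detected), 276 in the regulatory gate (Foxp3) and 774 in no class. NK-gated cells numbered 19, 5, 15 and 18 in the 4 thalamus sets and 71, 10, 0 and 4 in the 4 HPC sets, so HPC set 1 supplied 71 of the 142. Genes outside the gates differed in share between the classes, though not by presence alone. Klrd1, a partner of NKG2 receptors, was detected in 94.4% of NK-gated and 50.5% of CD8-gated cells. Ctla4 was detected in 92.4% of regulatory-gated, 71.8% of CD4-gated and 32.5% of CD8-gated cells. Cd40lg was detected in 43.5% of CD4-gated, 6.31% of CD8-gated and 5.07% of regulatory-gated cells. Gamma-delta-gated cells held Cd163l1 in 96.3% and Il17a, the gene of the cytokine IL-17A, in 46.5%, against 30.7% of CD4-gated cells with Il17a.

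The members were genes of lymphocytes in these data, with Klrk1 as an exception. T/NK-gated cells held 77.1% to 86.3% of the UMIs of the other 9 members over all 24939 cells, and cells with markers of both lymphocytes and other leukocytes (611 cells, median 7881 UMIs) held 11.5% to 17.7%. Klrk1 had 62.3% of its UMIs in T/NK-gated cells. NK-gated cells alone supplied 73.3% of all Gzma UMIs and 48.8% of all Eomes UMIs, and CD8-gated cells supplied 49.0% of all Gzmk UMIs. CD4-gated cells supplied 31.0% of all Ifng UMIs, and T/NK-gated cells in no class 31.2%. Microglia-gated cells should lack the members. Their gate took cells with at least 10 UMIs of 7 microglia genes and at most 1 UMI of the 15 genes of the T/NK gate. Members were detected in 0.0357% (Eomes) to 1.06% (Nkg7) of these 19598 cells at a median of 4691 UMIs. This was taken as the background of a share of cells. As the gate left out cells with more T/NK UMIs, the background may be too low.

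Most NK- and CD8-gated cells carried several members at once, and most other T cells carried none. The median number of members detected per cell was 5 in NK-gated, 3 in CD8-gated and 0 in gamma-delta-, CD4- and regulatory-gated cells. At least 3 members were detected in 94.4% of NK-gated cells, 62.1% of CD8-gated, 6.28% of CD4-gated, 1.82% of gamma-delta-gated and 1.81% of regulatory-gated cells. Median UMIs per cell were 4145 in NK-gated, 4210.5 in CD8-gated, 3824 in CD4-gated, 3601.5 in regulatory-gated and 3454 in gamma-delta-gated cells.

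**Figure D1:**
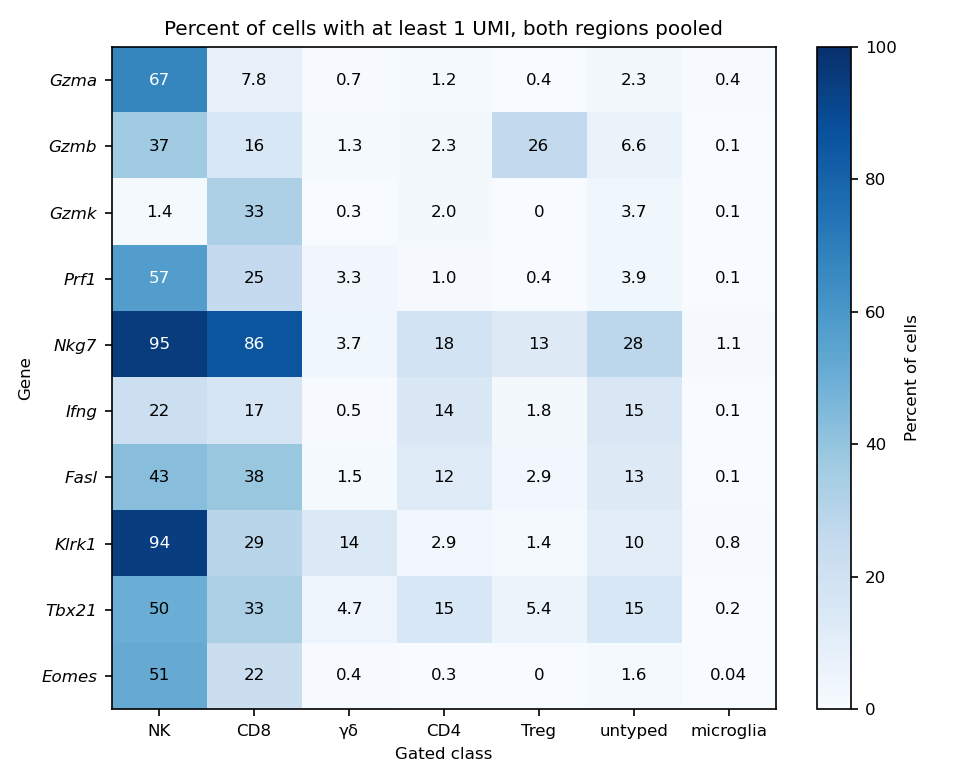
Percent of cells in which each member (rows) was detected, by gated class (columns, with Treg for the regulatory gate), over all 8 sets, with the number printed in each cell of the map. NK- and CD8-gated cells hold the high values (Nkg7 95.1% and 85.9%), Gzmb stands out in the regulatory class (26.1%), and microglia-gated cells stay at or below 1.06%.

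To ask how the classes differed, raw UMIs were summed per set and class for sums of at least 10 cells (31 sums: NK 5, CD8 6, gamma-delta 7, CD4 7, regulatory 6) and tested with edgeR, with the set as a block and Benjamini-Hochberg adjustment over the 4984 genes tested. The filter on low counts was applied once over all 31 sums, so a gene high in a single class entered every comparison. Gzmk, high in CD8-gated cells, is thus among the members called lower in regulatory- and gamma-delta-gated cells. Fold changes below are log2 values of summed UMIs with their standard error (SE), and levels are UMIs per 10000 UMIs. Against CD8-gated cells, NK-gated cells had 5 members called higher and 1 lower, in a comparison that called 4.72% of genes higher and 6.7% lower (11.4% in all). CD8- against CD4-gated cells had 8 called higher and 0 lower, with 8.45% of genes called higher and 6.62% lower (15.1% in all). Regulatory- against CD4-gated cells had 1 called higher and 4 lower, with 5.66% and 5.1% of genes called in these directions (10.8% in all). Gamma-delta- against CD4-gated cells had 2 called higher and 5 lower, with 12% of genes called in each direction (24% in all). The sets of NK- and CD8-gated cells did not overlap for 6 members, where 6.6% of all genes tested had no overlap. For CD8 against CD4 there were 5 such members, with 6.08% of genes, for regulatory against CD4 2, with 3.91%, and for gamma-delta against CD4 2, with 9.09%. The median log2 fold change of the 10 members was 1.23 for NK against CD8, 3.19 for CD8 against CD4 and -0.31 for gamma-delta against CD4, while that of all genes tested lay within -0.02 to 0.01. For regulatory against CD4 it was -1.63 over 9 members, with Gzmk, which had 0 UMIs in regulatory-gated cells, at its bound and Eomes left out.

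**Figure D2:**
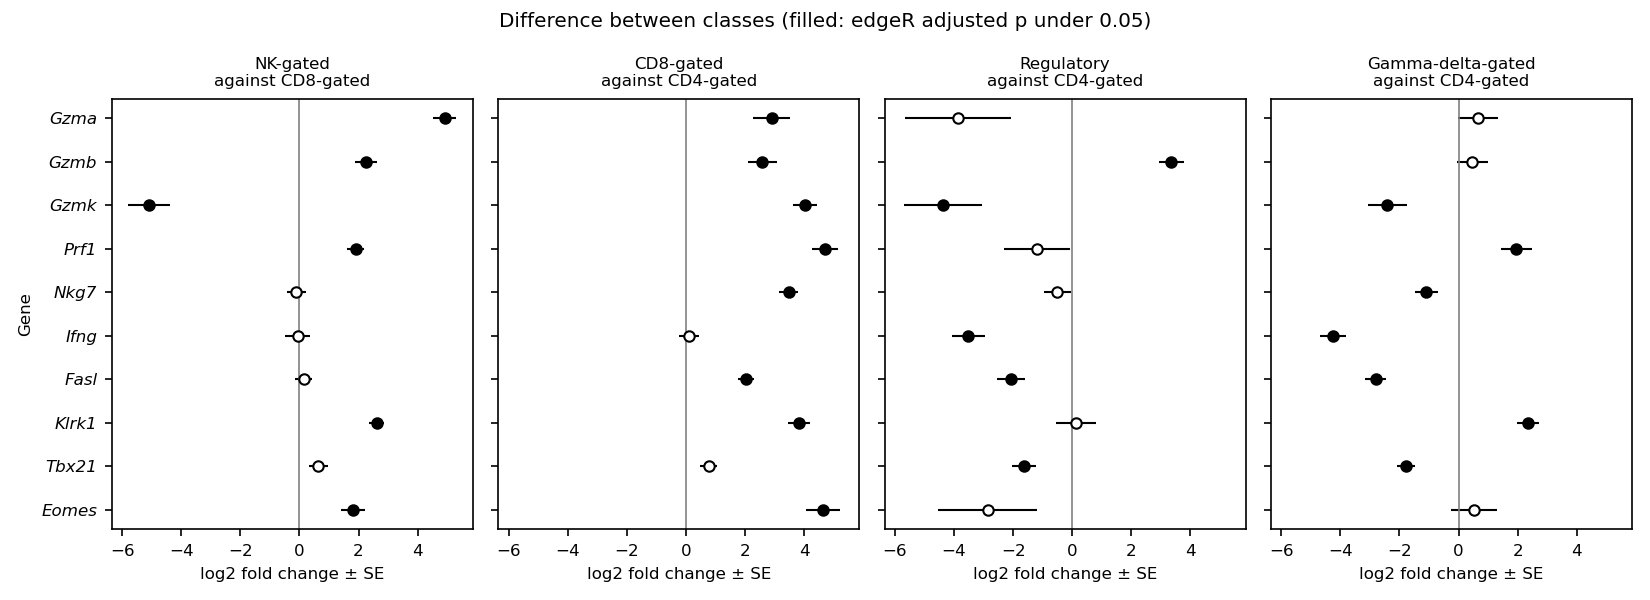
Log2 fold change (x axis) with bars of 1 SE of the 10 members in the 4 class comparisons, 1 panel each, from the edgeR fit over 31 sums of UMIs per set and class, with filled points for genes called at an adjusted p under 0.05. For NK against CD8, Gzma, Gzmb, Prf1, Klrk1 and Eomes lie to the right and Gzmk to the left as filled points, and Nkg7, Ifng, Fasl and Tbx21 are open.

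Gzma, granzyme A, was a gene of NK-gated cells. Its level was 32.0, 19.6 and 41.2 UMIs per 10000 in NK-gated cells of thalamus sets 1, 3 and 4, and 44.0 and 61.2 in HPC sets 1 and 2. In CD8-gated cells the 6 sets ran from 0 through a median of 0.55 to 3.21, so the lowest NK value stood above the highest CD8 value. Detection was 66.9% of NK-gated cells (95% interval 58.5% to 74.6%) against 7.77% of CD8-gated cells, and without HPC set 1, which held 71 of the 142 cells, 56.3% against 7.24%. The difference was 4.91 ± 0.40 on the log2 scale (edgeR, adjusted p = 3.2e-13), and 5.93 without HPC set 1. Outside the NK gate the level rested on few cells: 1 CD8-gated cell of HPC set 1 held 70 of the 115 Gzma UMIs of the class, 1 gamma-delta-gated cell of thalamus set 1 held 40 of 79, and 1 CD4-gated cell of HPC set 1 held 34 of 60. CD8-gated cells were called higher than CD4-gated cells in Gzma (2.90 ± 0.62, edgeR adjusted p = 0.000431), a call that DESeq2 did not make (adjusted p = 0.179), and without HPC set 1 the edgeR value was 4.19.

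Gzmb, granzyme B, was found in NK-gated cells and also in regulatory-gated cells. NK-gated cells had levels of 3.71, 3.44 and 3.84 UMIs per 10000 in thalamus sets 1, 3 and 4, and of 2.81 and 21.9 in HPC sets 1 and 2. HPC set 2 stood far above the other 4 sets, and 1 of its 10 NK-gated cells held 73 of the class's 276 Gzmb UMIs. Regulatory-gated cells ran from 1.21 through a median of 1.89 to 3.0 in 6 sets, and CD8-gated cells from 0.105 through 1.12 to 1.49, and these neighbours in the order of levels overlapped. In CD4-gated cells the 7 sets ran from 0 through 0.0528 to 0.425, below every regulatory value. Gzmb was detected in 36.6% of NK-gated, 26.1% of regulatory-gated (95% interval 21% to 31.7%), 15.5% of CD8-gated and 2.32% of CD4-gated cells, and in 26.7%, 21.1%, 11.3% and, for CD4, 1.74% after each cell was thinned to 2425 UMIs. By edgeR, Gzmb was higher in NK- than CD8-gated cells (2.26 ± 0.37, adjusted p = 9.89e-06), in CD8- than CD4-gated cells (2.59 ± 0.50, adjusted p = 0.000104) and in regulatory- than CD4-gated cells (3.36 ± 0.41, adjusted p = 4.26e-08).

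Gzmk, granzyme K, had the reverse distribution of its neighbour Gzma. CD8-gated cells of 6 sets ran from 0.83 through a median of 1.48 to 1.83 UMIs per 10000, and NK-gated cells were at 0 in 4 of 5 sets and at 0.0625 in HPC set 1. No set of NK- or CD4-gated cells reached the lowest CD8 value. Gzmk was detected in 67 of 206 CD8-gated cells (32.5%, 95% interval 26.2% to 39.4%), in 2 of 142 NK-gated cells (1.41%), in 15 of 733 CD4-gated cells (2.05%) and in 0 of 276 regulatory-gated cells, where a count of 0 allows a share of up to 1.33% by the exact interval. With 124 UMIs against 2, the pooled level of CD8-gated cells was 41.6 times that of NK-gated cells, with a counting interval of 11.3 to 347. The edgeR fit gave -5.08 ± 0.71 for NK against CD8 (adjusted p = 8.89e-07), or -8.02 without HPC set 1, which held both NK UMIs, and 4.04 ± 0.40 for CD8 against CD4 (adjusted p = 3.29e-10).

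**Figure D3:**
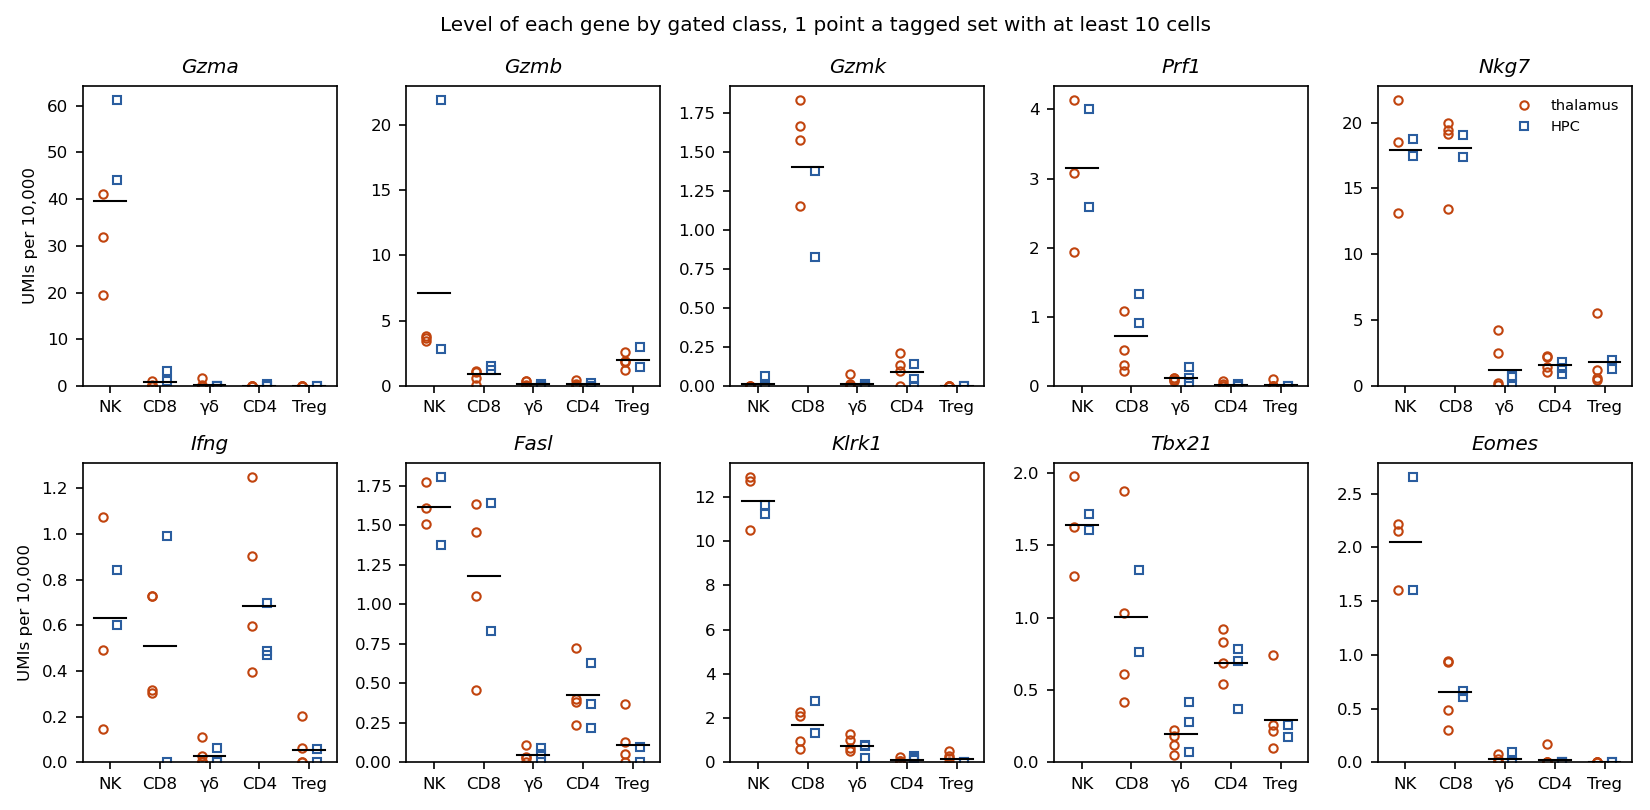
Level of each member in UMIs per 10000 (y axis, panels by gene) for each sum of a set and class with at least 10 cells, 1 point a set (circles thalamus, squares HPC), by gated class, with Treg for the regulatory gate. Gzma and Gzmk run opposite ways between NK (39.6 and 0.0125 as means of 5 sets) and CD8 (0.919 and 1.41 as means of 6 sets).

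Prf1, the perforin gene, followed NK-gated cells, with CD8-gated cells next. Its level was 3.09, 1.94 and 4.13 UMIs per 10000 in NK-gated cells of thalamus sets 1, 3 and 4, and 2.59 and 4.01 in HPC sets 1 and 2. CD8-gated cells ran from 0.210 through 0.719 to 1.33 over 6 sets, below every NK value. Gamma-delta-gated cells ran from 0.0376 through 0.108 to 0.278 over 7 sets, and in regulatory-gated cells 1 UMI was counted in all. Prf1 was higher in NK- than CD8-gated cells (1.91 ± 0.28, edgeR adjusted p = 1.48e-06), in CD8- than CD4-gated cells (4.71 ± 0.45, adjusted p = 5.47e-11) and in gamma-delta- than CD4-gated cells (1.95 ± 0.53, adjusted p = 0.0039). For gamma-delta-gated cells the share detected was 3.31%, against 0.955% of CD4-gated cells and 0.0969% of microglia-gated cells.

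Gzmb and Prf1 were also counted in the same cells, since granzymes reach a target through perforin. Of the 52 NK-gated cells with Gzmb, 33 also had Prf1 (63.5%, 95% interval 49.0% to 76.4%), and of 32 CD8-gated cells 10 did (31.3%, 16.1% to 50%). Of the 72 regulatory-gated cells with Gzmb, 0 had Prf1, which allows a share of up to 4.99%. These 72 cells came from both regions, 37 from the thalamus and 35 from the HPC. Among CD4-gated cells 1 of 17 had both, and among gamma-delta-gated cells 2 of 12. Among all cells of a class, with or without Gzmb, Prf1 was detected in 57.0% of NK-gated and 25.2% of CD8-gated cells. The share was 3.31% of gamma-delta-gated, 0.955% of CD4-gated and 0.362% of regulatory-gated cells. Whether cells with Gzmb differed from the rest of their class was not tested. These counts pool cells over sets, and no test between classes was run on them. Without HPC set 1 the counts were 17 of 27 for NK, 7 of 20 for CD8 and 0 of 43 for regulatory.

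**Figure D4:**
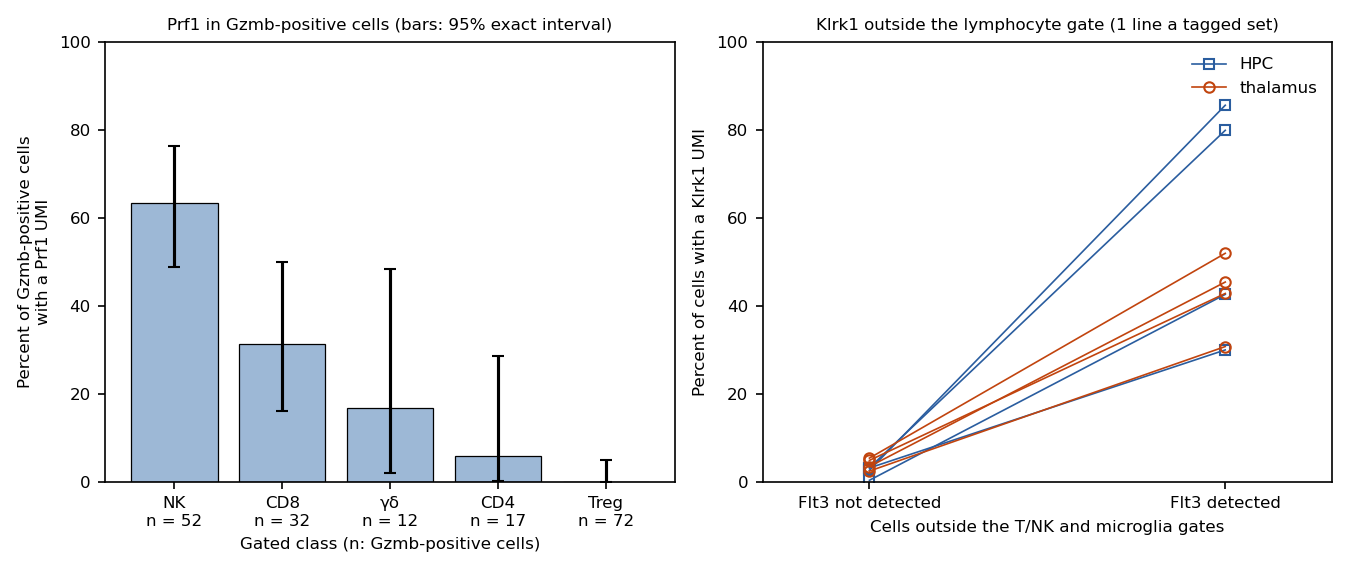
Left, percent of Gzmb-positive cells in which Prf1 was also detected, by gated class, with exact 95% intervals, from 63.5% in NK-gated to 0 of 72 in regulatory-gated cells. Right, percent of cells with Klrk1 in each set among ungated leukocytes with and without Flt3, cells of mixed markers left out, with 1 point a set, where all 8 sets have the higher share in cells with Flt3.

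Nkg7 had overlapping levels in NK- and CD8-gated cells. Its levels in NK-gated cells were 18.5, 13.1 and 21.7 UMIs per 10000 in thalamus sets 1, 3 and 4, and 18.7 and 17.5 in HPC sets 1 and 2, and CD8-gated cells ran from 13.5 through 19.1 to 20. The log2 fold change of NK against CD8 was -0.10 ± 0.31 (edgeR adjusted p = 0.919). Nkg7 was detected in 95.1% of NK-gated and 85.9% of CD8-gated cells, and the lowest NK set, at 13.1, stood above the highest regulatory set, at 5.57. CD8-gated cells exceeded CD4-gated cells (3.48 ± 0.33, adjusted p = 5.39e-11), in which 18.4% of cells had the gene. In gamma-delta-gated cells 3.74% had it, with set levels from 0 through 0.668 to 4.25, and the fit called it lower than in CD4-gated cells (-1.09 ± 0.40, edgeR adjusted p = 0.0399). That call was lost with DESeq2 (adjusted p = 0.177), without the block (0.0776), and without HPC set 4 (-0.91, edgeR adjusted p = 0.0918), thalamus set 2 (-0.70, 0.254) or thalamus set 4 (-0.60, 0.344).

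Ifng was shared by NK-, CD8- and CD4-gated cells, and T/NK-gated cells in no class held 31.2% of its UMIs. The level in NK-gated cells was 0.494, 1.08 and 0.148 UMIs per 10000 in thalamus sets 1, 3 and 4, and 0.844 and 0.602 in HPC sets 1 and 2. CD8-gated cells ran from 0 through 0.521 to 0.993 and CD4-gated cells from 0.396 through 0.598 to 1.25, so the 3 classes overlapped. The edgeR fits gave -0.06 ± 0.42 for NK against CD8 (adjusted p = 0.977) and 0.11 ± 0.33 for CD8 against CD4 (adjusted p = 0.905). Ifng was lower in regulatory- than in CD4-gated cells (-3.51 ± 0.55, adjusted p = 4.57e-06) and in gamma-delta- than in CD4-gated cells (-4.25 ± 0.44, adjusted p = 5.72e-11). It was detected in 104 of 733 CD4-gated cells (14.2%), in 5 of 276 regulatory-gated cells (1.81%) and in 5 of 936 gamma-delta-gated cells (0.534%), the cells of which 46.5% had Il17a.

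Fasl was highest in NK- and CD8-gated cells, which overlapped. NK-gated cells had 1.61, 1.51 and 1.77 UMIs per 10000 in thalamus sets 1, 3 and 4, and 1.38 and 1.81 in HPC sets 1 and 2, and CD8-gated cells ran from 0.458 through 1.26 to 1.64. The NK against CD8 difference was 0.14 ± 0.28 (edgeR adjusted p = 0.858). CD8-gated cells exceeded CD4-gated cells (2.04 ± 0.26, adjusted p = 4.99e-08), and CD4-gated cells exceeded regulatory-gated cells (-2.07 ± 0.47 for regulatory against CD4, adjusted p = 0.00122) and gamma-delta-gated cells (-2.81 ± 0.37, adjusted p = 2.86e-08). Shares detected were 43.0% of NK-gated, 38.3% of CD8-gated, 12.1% of CD4-gated, 2.90% of regulatory-gated and 1.5% of gamma-delta-gated cells.

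Klrk1 was detected in nearly all NK-gated cells and in several other classes. Its level in NK-gated cells was 10.5, 12.9 and 12.7 UMIs per 10000 in thalamus sets 1, 3 and 4, and 11.6 and 11.2 in HPC sets 1 and 2 (mean 11.8 ± 1.01, SD, n = 5). CD8-gated cells ran from 0.606 through 1.71 to 2.79, and gamma-delta-gated cells from 0.188 through 0.723 to 1.27. The gene was detected in 94.4% of NK-gated, 29.1% of CD8-gated and 13.8% of gamma-delta-gated cells. By edgeR it was higher in NK- than CD8-gated (2.62 ± 0.25, adjusted p = 2.03e-11), CD8- than CD4-gated (3.83 ± 0.38, adjusted p = 1.61e-10) and gamma-delta- than CD4-gated cells (2.35 ± 0.38, adjusted p = 2.41e-06).

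Klrk1 was also present in leukocytes outside the lymphocyte and microglia gates. The 611 cells with markers of both lymphocytes and other leukocytes held 13.6% of its UMIs, and the remaining 1663 cells 13.3%. Of these 1663 cells, 122 had Klrk1, and 85 of them were among the 181 cells with Flt3, the receptor of a dendritic cell growth factor. The mixed 611 cells are left out of the values that follow. By set, the share with Klrk1 among Flt3-positive cells was 42.9%, 52.0%, 45.5% and 30.8% in thalamus sets 1 to 4 and 42.6%, 85.7%, 30% and 80% in HPC sets 1 to 4. In Flt3-negative cells the share spanned 2.42% to 5.37% among the 4 thalamus sets and 0.319% to 3.17% among the 4 HPC sets, so every set had the higher share in Flt3-positive cells. The median depth differed, with 7235 UMIs against 2154, and the pooled level, which takes depth into account, was 1.63 against 0.155 UMIs per 10000. Of the 122 cells with Klrk1, 97.5% had Cd74 and 90.2% had H2-Ab1, both of the MHC class II pathway, 77.0% had Klrd1, 1.64% had Cd3e, and 0 had Gzma, Prf1 or Eomes. Of the 1541 cells without Klrk1, 34.3% had Cd74, 20.8% H2-Ab1 and 5.78% Klrd1. In the same cells the shares were 2.79% for Cd3e, 0.389% for Gzma, 0.0649% for Prf1 and 0 for Eomes, so these were low in both groups. Cd3e is a T/NK gate gene, and its share was limited by the gate. Flt3 and these genes were chosen after the values had been seen, and the split has no test.

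Tbx21 was found in NK-, CD8- and CD4-gated cells, and Eomes in NK- and CD8-gated cells. Tbx21 was at 1.98, 1.29 and 1.62 UMIs per 10000 in NK-gated cells of thalamus sets 1, 3 and 4, and at 1.72 and 1.60 in HPC sets 1 and 2. CD8-gated cells ran from 0.421 through 0.897 to 1.87 and CD4-gated cells from 0.369 through 0.700 to 0.920, each overlapping its neighbour. Neither NK against CD8 (0.64 ± 0.33, edgeR adjusted p = 0.244) nor CD8 against CD4 (0.77 ± 0.29, adjusted p = 0.0676) passed, the latter being called without thalamus set 2 (0.99, adjusted p = 0.0172), with a mitochondrial limit of 5% (1.05, adjusted p = 0.000516) and without the 5% of cells with the most UMIs (0.95, adjusted p = 0.0111). Tbx21 was lower in regulatory- (-1.63 ± 0.40, adjusted p = 0.00327) and gamma-delta-gated (-1.78 ± 0.30, adjusted p = 6.26e-06) than in CD4-gated cells, and the latter value was -2.59 without HPC set 1.

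Eomes was at 1.61, 2.15 and 2.21 UMIs per 10000 in NK-gated cells of thalamus sets 1, 3 and 4, and at 2.66 and 1.60 in HPC sets 1 and 2. CD8-gated cells ran from 0.305 through 0.637 to 0.947, below every NK value and above every gamma-delta value, whose highest was 0.0929. In CD4-gated cells 2 of 733 had it, both in thalamus set 2, and in regulatory-gated cells 0 of 276. The fit called Eomes higher in NK- than CD8-gated cells (1.82 ± 0.40, edgeR adjusted p = 0.0012), though DESeq2 did not (adjusted p = 0.239). It was higher in CD8- than CD4-gated cells (4.63 ± 0.58, adjusted p = 7.29e-08), and 7.33 without thalamus set 2. Against regulatory-gated cells, the pooled NK level was at least 85.6-fold higher and the CD8 level at least 24.4-fold higher, taking a floor of 3 UMIs over the regulatory class.

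Regulatory-gated cells thus had a single member raised over CD4-gated cells, Gzmb, and 4 called lower: Ifng, Fasl, Tbx21 and Gzmk. For Gzmk the pooled CD4 level of 0.0862 UMIs per 10000 was at least 3.15-fold higher than the floor of the regulatory class, and the fitted value, which is no bound, had an edgeR adjusted p of 0.0227. That call was lost without HPC set 1 (adjusted p = 0.0969), thalamus set 1 (0.0519), thalamus set 2 (0.0987) or thalamus set 4 (0.062), with DESeq2 (0.0566) and with stricter gates (0.189), all by the fit across genes. Gzma, Prf1, Nkg7, Klrk1 and Eomes did not pass, although without thalamus set 1 Gzma did (edgeR adjusted p = 0.0395), with 60 UMIs in CD4- and 1 in regulatory-gated cells. Without the filter on low counts, Gzma (-3.91, edgeR adjusted p = 1.27e-05) and Nkg7 (-0.58, 0.0317) were called lower. In gamma-delta-gated cells, Gzmk was called lower than in CD4-gated cells (-2.41 ± 0.67, edgeR adjusted p = 0.00544), a call lost without thalamus set 2 (-1.92, 0.0591) or thalamus set 4 (-2.12, 0.0735). It was detected in 0.321% of gamma-delta- and 2.05% of CD4-gated cells. In CD4-gated cells alone Gzmk did not pass the filter on low counts. Its 2 calls here rest on a filter that also took in CD8-gated cells. Gzma (0.66 ± 0.68, adjusted p = 0.564), Gzmb (0.47 ± 0.51, 0.585) and Eomes (0.52 ± 0.77, 0.705) did not pass there, but without HPC set 1 Gzma did (3.40, 0.00632) and without thalamus set 2 Eomes did (3.49, 0.00771). In this class 1 cell of thalamus set 4 held 59 of 84 Gzmb UMIs.

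Other genes of the cytotoxic programme were followed through lists chosen with the members. Of 13 granule genes, 8 were tested between classes, and NK- over CD8-gated cells had 2 higher: Serpinb9, a granzyme B inhibitor (2.63 ± 0.40, edgeR adjusted p = 2.94e-06), and the granule cathepsin gene Ctsw (0.58 ± 0.18, adjusted p = 0.0225). The Ctsw call was lost without HPC set 2 (edgeR adjusted p = 0.101), thalamus set 2 (0.0593) or thalamus set 3 (0.15) and with stricter gates (0.201). CD8- over CD4-gated cells had Ctsw (1.64 ± 0.17, adjusted p = 3.51e-10) and Cst7, an inhibitor of granule cathepsins (1.41 ± 0.24, adjusted p = 1.87e-05), higher. Cst7 was also higher in gamma-delta- than in CD4-gated cells (1.40 ± 0.19, adjusted p = 8.57e-08), and Srgn, the granule proteoglycan gene, in regulatory- than in CD4-gated cells (0.54 ± 0.12, edgeR adjusted p = 0.000706). Cst7 in regulatory-gated cells (0.90 ± 0.25, edgeR adjusted p = 0.0122) lost its call without thalamus set 1 (0.0611) or thalamus set 4 (0.0585) and with stricter gates (0.0962). Srgn in gamma-delta-gated cells (0.29 ± 0.11, edgeR adjusted p = 0.037) lost it in 8 of 13 alternatives, DESeq2 among them (0.0713). Lamp1, a granule membrane gene, was called higher in gamma-delta-gated cells (0.56 ± 0.16, edgeR adjusted p = 0.00736), but not without HPC set 1 (0.43, 0.112).

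Of 10 genes for NK receptors and adaptors, 9 were tested. NK- over CD8-gated cells had 5 higher and 1 lower, of which Ncr1 and Klrb1c are gate genes and show only the gate. The others were the adaptor gene Tyrobp (4.09 ± 0.23, edgeR adjusted p = 6.9e-19), Klrc2 (2.53 ± 0.48, adjusted p = 0.000151) and Klrd1 (1.83 ± 0.25, adjusted p = 3.35e-07), while Hcst, the adaptor of NKG2D, was lower (-0.77 ± 0.16, adjusted p = 0.000516). CD8- over CD4-gated cells had Klrd1, Klrc2, Slamf7, Klrc1 and Hcst higher (0.75 to 4.23), of which Klrc1 was not tested without HPC set 1, and Cd226 lower (-0.45 ± 0.15, adjusted p = 0.0336), a call lost in 5 of 13 alternatives. Among 4 effector chemokine genes, of which 3 were tested, Ccl4 (6.56 ± 0.68), Ccl5 (4.97 ± 0.27) and Xcl1 (3.34 ± 0.66) were higher in CD8- than CD4-gated cells, Xcl1 not without HPC set 1 (1.63, edgeR adjusted p = 0.135). For NK against CD8, Ccl4 was at -2.74 ± 0.63 (edgeR adjusted p = 0.00164), but at -1.11 without HPC set 1 (0.279) and at -0.90 with DESeq2 (0.715).

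Among 4 further death ligand genes, Tnfsf10, encoding TRAIL, was higher (0.91 ± 0.23, edgeR adjusted p = 0.00356) and Tnf lower (-1.13 ± 0.29, adjusted p = 0.00374) in CD8- than CD4-gated cells. For NK against CD8 the fit called Tnfsf10 higher (0.82 ± 0.25, edgeR adjusted p = 0.0223), Tnf lower (-2.08 ± 0.62, 0.0192) and the transcription factor gene Tox lower (-0.82 ± 0.22, 0.00769), and each of these calls was lost in 4 of 13 alternatives. Without HPC set 1, Tnf (-1.92, edgeR adjusted p = 0.166) and Tox (-0.62, 0.116) did not pass, and Tox was at -0.29 with a mitochondrial limit of 5%. Tnfsf10 did not pass without HPC set 2 (edgeR adjusted p = 0.0654), thalamus set 3 (0.1) or thalamus set 4 (0.0893), Tnf without thalamus set 1 (0.0983), or Tox without thalamus set 4 (0.0584). Of 5 tissue residency genes tested, 3 were lower in NK- than CD8-gated cells (Itgae -2.98 ± 0.82, Cxcr6 -1.92 ± 0.19, Cd69 -1.66 ± 0.36), Itgae not without HPC set 1 (edgeR adjusted p = 0.0541). Of the microglia markers 6 were tested, and of the markers of other myeloid and B cells 1. None was called by edgeR or DESeq2 in the 4 class comparisons, with 2 at an unadjusted edgeR p under 0.05, both in gamma-delta against CD4. Of 5 dissociation-responsive genes tested, Jun was lower in CD8- than CD4-gated cells, and Jun and Ier2 were higher in gamma-delta- than CD4-gated cells. The calls of Ier2 for NK against CD8 (higher) and Junb for CD8 against CD4 (lower) were lost in 8 and 3 of 13 alternatives. The part of these in the members' values was not tested.

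The genes most like each member over the 31 sums were found by the Pearson correlation of log2(CPM + 1), with CPM the usual depth-scaled count, among 7969 genes. As sums of 1 set share a library and a mouse, and sums of 1 class share a gate, these values are a description. Klre1, a gate gene, led for Gzma (r = 0.917), followed by Klra3 (0.893) and Styk1 (0.890). For Gzmk the gate genes Cd8a (0.862) and Cd8b1 (0.862) led. Runx3, a transcription factor gene, was the most like Prf1 (0.880), Ccl5 the most like Nkg7 (0.856), Dapk2 the most like Eomes (0.924), Pglyrp1 the most like Gzmb (0.836) and Tm6sf1 the most like Klrk1 (0.877). Epsti1, an interferon-induced gene, was the most like both Fasl (0.897) and Tbx21 (0.867), and Ssbp2 the most like Ifng (0.749).

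To ask whether the members differed between the regions, all T/NK-gated cells were summed per set (4 and 4 sets) and tested with edgeR. None of the 10 members was called by edgeR, in a comparison in which edgeR called 0.195% of the 9230 genes tested (18 genes). DESeq2 gave an adjusted p for 1 of the 10 members, Nkg7, which it did not call. Their log2 fold changes of thalamus over HPC ran from -0.96 ± 0.63 for Gzma to 0.79 ± 0.31 for Gzmk, with edgeR adjusted p from 0.657 upward. Gzmk was the 1 member at an unadjusted p under 0.05 in this fit, which had no block. With the set number as a block, Gzma (0.0376), Gzmk (0.0170), Nkg7 (0.0363) and Ifng (0.0197) were under 0.05 by unadjusted edgeR p. None was called with the block, the lowest edgeR adjusted p being 0.334 for Gzmk. In bulk sums a lower share of a class and less RNA per cell of that class cannot be told apart. The cells in each class varied widely between sets of a region: the gamma-delta share of T/NK-gated cells was 30.7% ± 19.9 in the thalamus and 27.2% ± 13.7 in the HPC (SD, n = 4 each), and the NK share 4.67% ± 4.42 and 3.85% ± 3.41.

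In all T/NK-gated cells, Gzmk was the member whose sets did not overlap between regions. It was at 0.190, 0.180, 0.403 and 0.194 UMIs per 10000 in T/NK-gated cells of thalamus sets 1 to 4, and at 0.145, 0.0659, 0.0705 and 0.136 in HPC sets 1 to 4. Every thalamus set was thus above every HPC set, as for 1 of 10 members where 5.01% of all genes tested had no overlap in either direction, and the edgeR adjusted p was 0.657. Gzma was at 1.89, 0.263, 2.08 and 1.28 in the thalamus sets and at 4.17, 3.60, 0.141 and 0.204 in the HPC sets. The 2 HPC sets with a high value were those with 71 and 10 NK-gated cells, and the 2 with a low value had 0 and 4. The other 8 members overlapped between regions in all T/NK-gated cells. Within NK-gated cells, Gzma ran from 19.6 to 41.2 in 3 thalamus sets and from 44.0 to 61.2 in 2 HPC sets of at least 10 cells. The fit over NK-gated sets of at least 3 cells, described below, did not call it (-0.46 ± 0.37, edgeR adjusted p = 0.999).

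**Figure D5:**
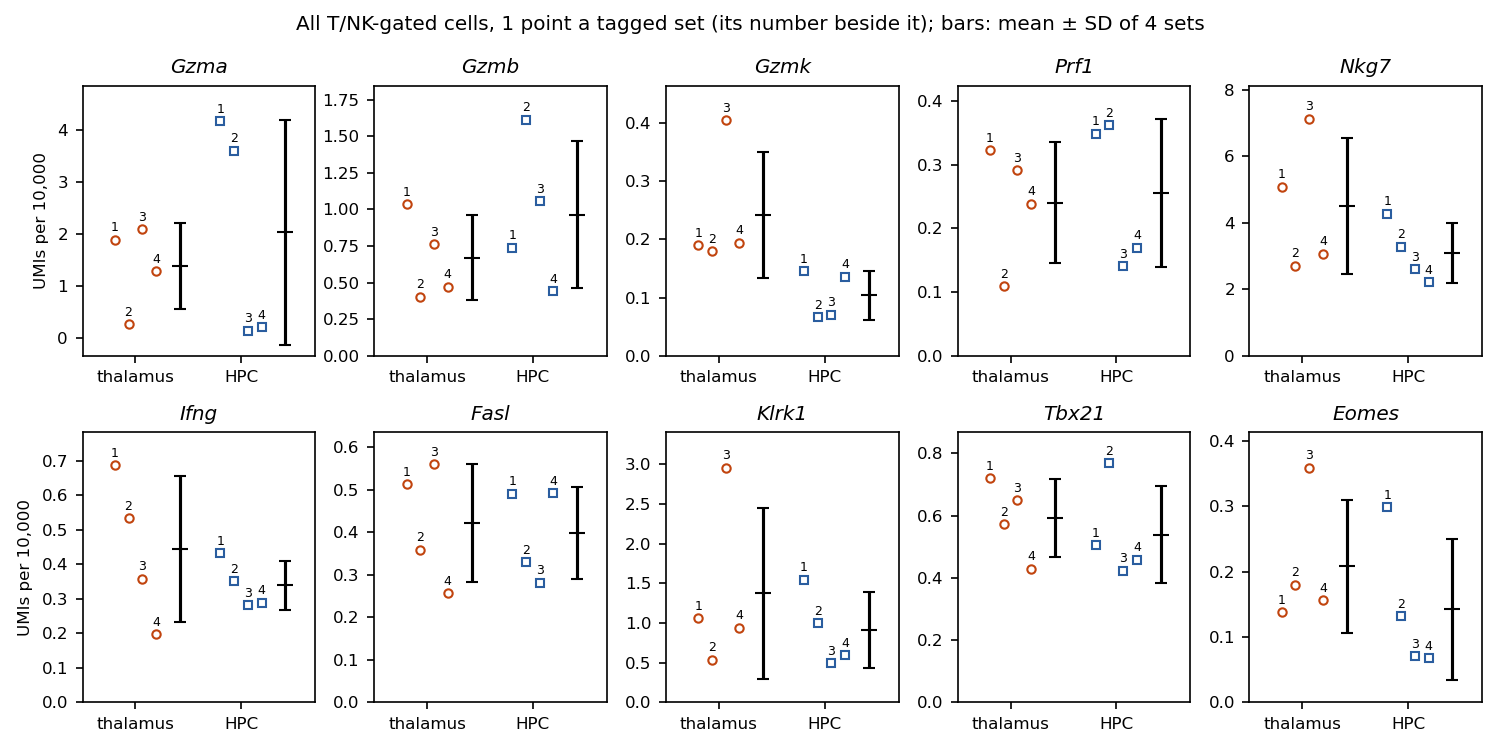
Level of each member in UMIs per 10000 (y axis, panels by gene) in all T/NK-gated cells of the 4 thalamus and 4 HPC sets, with the set number beside each point and the mean ± SD of 4 sets as a bar. Points of the regions overlap for 9 members, and for Gzmk the lowest thalamus set (0.180) is above the highest HPC set (0.145).

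Other values moved with region in the same sums. The microglia markers C1qa (0.50 ± 0.09, edgeR adjusted p = 0.0486), C1qb (0.60 ± 0.10, adjusted p = 0.0296) and C1qc (0.67 ± 0.12, adjusted p = 0.0331) were higher in the thalamus, 3 of the 8 tested of 9, although each call was lost without 6 or 7 of the 8 sets in turn and DESeq2 gave none of the 3 an adjusted p. The summed level of the list was 11.9 to 12.7 UMIs per 10000 in the thalamus sets against 9.08 to 10.4 in the HPC sets. Of 6 dissociation-responsive genes tested, Junb was higher (0.57 ± 0.08, edgeR adjusted p = 0.0124), but not without HPC set 2 (0.0927) or HPC set 4 (0.0537), and that list summed to 13.4 to 17.9 against 8.11 to 12.2. The part of either in the values above was not tested. Of the other lists of the programme, 12 granule genes, 10 receptor and adaptor genes, 4 chemokine genes, 10 transcription factors, 4 death ligands, 5 residency genes, 6 circulation genes and 11 genes for receptors, signalling partners and ligands were tested. None was called by edgeR, and 4, 1, 0, 0, 0, 1, 1 and 1 of them, in that order, were at an unadjusted edgeR p under 0.05. DESeq2 gave an adjusted p to 1, 2, 1, 3, 1, 1, 0 and 3 of them, in the same order, and called 0.

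Within CD4-gated cells (4 thalamus and 3 HPC sets) 4 members could be tested and 0 were called by edgeR or DESeq2, where edgeR called 0.177% of 6223 genes. Nkg7 and Tbx21, 2 of the 4, were at an unadjusted p under 0.05. The log2 fold changes of thalamus over HPC were 0.54 ± 0.21 for Nkg7, 0.58 ± 0.30 for Ifng, 0.64 ± 0.27 for Tbx21 and -0.00 ± 0.34 for Fasl, with edgeR adjusted p from 0.53 to 1. Gzma, which the filter on low counts had left out, was called lower in the thalamus without the filter (-4.91 ± 0.78, edgeR adjusted p = 5.89e-07), on 1 UMI in the 4 thalamus sets and 56, 2 and 1 UMIs in HPC sets 1, 2 and 4, 34 of the 56 in 1 cell. Only 2 HPC sets had 10 CD8- or NK-gated cells, so sets with at least 3 cells were used for these classes, a choice made after the counts were seen. In CD8-gated cells (4 and 4 sets) 0 of 4 members tested were called by either tool, with 0.495% of 1414 genes called by edgeR, and the largest difference was -0.67 ± 0.32 for Klrk1 (edgeR adjusted p = 0.595), the 1 member at an unadjusted p under 0.05. Gzma was called lower in the thalamus without the filter (-2.10 ± 0.37, edgeR adjusted p = 1.15e-05), with 22 of the 24 thalamus UMIs in set 4 and 84 of the 91 HPC UMIs in set 1, 70 of them in 1 cell. Of the 2 effector chemokine genes tested, Ccl5 (-0.55 ± 0.13, edgeR adjusted p = 0.0303) and Xcl1 (-1.56 ± 0.38, adjusted p = 0.0467) were called lower, but each call was lost without 5 of the 8 sets in turn, and DESeq2 did not call Ccl5 (adjusted p = 0.995) and gave Xcl1 no adjusted p. In NK-gated cells (4 and 3 sets) 0 of 6 members were called by either tool, with 0.109% of 921 genes called by edgeR, and the largest was Gzmb at -1.44 ± 0.57 (edgeR adjusted p = 0.999), the 1 member at an unadjusted p under 0.05. That value turned to 0.26 without HPC set 2, the set with the single cell of 73 Gzmb UMIs, and was called at -2.13 without HPC set 1 (edgeR adjusted p = 0.00533).

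The share of T/NK-gated cells among all cells was 14.8% ± 6.47 in the thalamus and 7.50% ± 6.13 in the HPC (SD, n = 4 each), a difference that did not pass a two-sided exact permutation test over 70 assignments (p = 0.171, smallest possible 0.0286). The shares of the 5 classes among T/NK-gated cells gave exact permutation p from 0.171 to 0.857, all 0.857 after adjustment over the 5 tests.

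Microglia, which carry receptors for interferon gamma and FAS ligand, were also compared between regions (4 and 4 sets). Of 14 genes for receptors, signalling partners and ligands of the members, 10 were tested in microglia-gated cells and 0 were called by edgeR or DESeq2, where edgeR called 12.1% of 13120 genes, and 3 of the 10 were at an unadjusted p under 0.05. Of the members themselves, 3 passed the filter on low counts and 1, Nkg7, was called higher in the thalamus (1.01 ± 0.26, edgeR adjusted p = 0.0351; 8.01% of genes were called higher). Its level was 0.025, 0.0298, 0.0470 and 0.0249 UMIs per 10000 in the thalamus sets and 0.0123, 0.0200, 0.0195 and 0.0138 in the HPC sets, against 13.1 to 21.7 in NK-gated cells. The sets of the regions did not overlap for Nkg7, as for 20.2% of genes tested. Tbx21 and Gzmb, left out by the filter, had no overlap either, with the thalamus higher. Tbx21 was at 0.00458 to 0.00663 against 0.000987 to 0.00256 UMIs per 10000, and Gzmb at 0.00229 to 0.00416 against 0 to 0.00217. Without the filter neither was called (edgeR adjusted p = 0.0961 and 0.364). With each set left out in turn, the Nkg7 call was lost without 7 of the 8 sets (edgeR adjusted p from 0.0552 to 0.0957) and kept without HPC set 1 (0.0427). Klrk1 (1.15 ± 0.54, adjusted p = 0.185) was called without HPC set 1 (1.75, adjusted p = 0.0363). Of 11 granule genes tested, 3 were called higher in thalamic microglia-gated cells and 0 lower, with Cst7 at 3.12 ± 0.51 (edgeR adjusted p = 0.00836), Ctsw at 1.15 ± 0.19 (0.00836) and Srgn at 0.61 ± 0.15 (0.0327), and Srgn lost its call without 5 of the 8 sets in turn. Of 3 effector chemokine genes tested, Ccl3 (2.05 ± 0.30, edgeR adjusted p = 0.00559) and Ccl4 (1.96 ± 0.24, 0.0031) were higher. Other lists moved in the same sums. Of 7 dissociation-responsive genes tested, Dusp1 (1.2 ± 0.12), Fos (0.77 ± 0.13) and Ier2 (0.66 ± 0.07) were higher. Of 5 cycling genes tested 4 were higher (Birc5 3.24, Top2a 2.39, Stmn1 2.04, Cdk1 1.47), although without 1 set Birc5 and without 3 sets in turn Top2a and Cdk1 lost their calls. Of 6 markers of other myeloid and B cells tested, the B cell genes Ms4a1 (-3.06 ± 0.53, edgeR adjusted p = 0.00988) and Cd79a (-2.76 ± 0.40, 0.00531) were lower, but not without the 5% of cells with the most UMIs (edgeR adjusted p = 0.059 and 0.0612). Of 9 microglia markers Cx3cr1 was lower (-0.41 ± 0.09, 0.0242), a call lost without 6 of the 8 sets in turn. The part of these in the values above was not tested.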

How the data were processed

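Single-cell libraries (10x Genomics 3′ v3.1) of CD45-positive cells were made by the authors, 1 gene expression library a region. The deposited matrices hold raw UMI counts per gene and cell, made by the authors with Cell Ranger (7.1.0 in the file header; the methods name an earlier version) on mm10. Whether intronic reads were counted is not given in the sources used here. The 8 matrices were taken as 1 mouse each, which no label states, and set numbers come from file names. P-values of the region fits and the shares therefore measure the spread between tagged sets. Those of the class fits, with the set as a block, measure how class differences within a set vary between sets.

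Cells with 200 to 7500 genes and at most 2% mitochondrial UMIs were kept, after the study's limits. No doublet caller was run. Cells with at least 3 UMIs of 15 T/NK genes, outnumbering 13 genes of other leukocytes, were gated, then typed by Cd3, Trdc, Ncr1, Klrb1c, Klre1, Cd4, Cd8 and Foxp3 genes. Raw counts were summed per set and class of at least 10 cells and tested with edgeR 4.0.16 (quasi-likelihood, TMM, R 4.3.3), the genes filtered by filterByExpr, with Benjamini-Hochberg adjustment and a threshold of 0.05. Class comparisons kept the set as a block. Shares used two-sided exact permutation tests (scipy 1.17.1). Genes at 0 were given a floor of 3 counts over the class. Planned region fits in CD8- and NK-gated cells had fewer than 3 HPC sets of 10 cells and were not made, so sets of at least 3 cells were used. The study's own tests over single cells were not used.

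Alternatives were DESeq2 1.42.0, no filter, the set number as a block in region fits or no block in class fits, each set left out, a mitochondrial limit of 5%, stricter gates (each minimum doubled to 6 UMIs for T/NK and 4 for NK), and cells without the top 5% of UMIs. Members, gene lists and tests were chosen with earlier results of these data known. All 10 members and the most similar genes were named, and list genes where called; some list genes are not reported here. Each fit was tested on simulated counts. Sequences are from RefSeq (GRCm38.p6) and positions from GENCODE M21 (GRCm38).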

Additional observations from a re-analysis of the deposited data

Results flagged for a closer look

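Among 69 groups of 4 sets, 7 held a set whose distance from the other 3 passed Dixon's 95% limit, and chance passes about 1 in 20 groups. Gzma in CD8-gated cells was at 1.15 UMIs per 10000 in thalamus set 4, from 22 UMIs in 6 cells, against 0 to 0.105 in the other thalamus sets. Gzma in gamma-delta-gated cells was at 1.63 in thalamus set 1, from 44 UMIs in 2 cells, against 0 to 0.213. Gzmk in all T/NK-gated cells was at 0.403 in thalamus set 3, from 18 UMIs in 11 cells, against 0.180 to 0.194. Nkg7 in CD8-gated cells was at 13.5 in thalamus set 2, from 128 UMIs in 18 cells, against 19.2 to 20, and in regulatory-gated cells it was at 5.57 in thalamus set 3, from 15 UMIs in 3 cells, against 0.428 to 1.22. Fasl in microglia-gated cells was at 0.00161 in thalamus set 1, from 2 UMIs, against 0.00416 to 0.00458. Gamma-delta-gated cells made up 47.5% of T/NK-gated cells in HPC set 4, against 17.7% to 21.9% in the other HPC sets. What set these sets apart was not tested.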

How the results depend on the processing

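Of 881 values of a member's log2 fold change under an alternative, 797 kept their direction and side of the threshold, 22 lost the call, 11 gained it and 51 changed sign, and the 51 came from members not called in the comparison. Of 120 counts of genes called, 83 stayed within 1.5 times. Where nothing else is said below, the cause was not tested. Depth limits members with few UMIs outside NK- and CD8-gated cells, and the regions rest on 4 sets each.

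The number of genes called between regions moved from 18 in T/NK-gated cells to 33 with DESeq2 (which gave an adjusted p for 462 genes), 99 without the filter and 172 with the set number as a replicate block. In CD4-gated cells it moved from 11 to 4, 73 and 28 in that order, to 20 with a mitochondrial limit of 5% and to 6 with stricter gates. In microglia-gated cells it moved from 1592 to 3779 with the block, in CD8-gated cells from 7 to 3 with DESeq2 and 28 without the filter, and in NK-gated cells from 1 to 2 without the filter, 2 with the limit of 5% and 0 with stricter gates. Regulatory against CD4 moved from 536 to 345 with stricter gates, which leave fewer cells.

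No label says whether same-numbered sets of the regions came from the same mouse. Such sets correlated at 0.240, 0.0081, 0.0157 and 0.255 in T/NK-gated cells and at 0.579, 0.0964, 0.528 and 0.188 in microglia-gated cells. In CD4-gated cells the values were 0.0813, 0.00758 and 0.0528. Pairing was to be read only from every pair above 0.1, so the main region fits had no block. A link by mouse was not settled by this rule. In microglia-gated cells each thalamus set correlated best with its own number, and HPC set 2 with thalamus set 3 (0.208). With the replicate block, Klrk1 was called in microglia-gated cells (1.21, edgeR adjusted p = 0.0311), Klrk1 in T/NK-gated cells turned to -0.10 and Eomes in NK-gated cells to 0.0826. In T/NK-gated cells the block put Gzma, Gzmk, Nkg7 and Ifng at an unadjusted edgeR p under 0.05, against Gzmk alone without it. The unadjusted values between regions thus depended on whether sets were paired. Without the set block, Ifng for NK against CD8 turned to 0.0135, and Nkg7 for gamma-delta against CD4 lost its call.

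With DESeq2, Eomes between regions turned to 0.18 in T/NK- and NK-gated cells, Ifng to 0.015 for NK against CD8 and to -0.14 for CD8 against CD4. Without the filter Prf1 in NK-gated cells turned to -0.0064. With the limit of 5%, Nkg7 and Eomes in NK-gated cells turned to -0.017 and 0.24, Ifng for CD8 against CD4 to -0.0446, Klrk1 for regulatory against CD4 to -0.0677, and the difference in NK share to -0.0321 percentage points. With stricter gates, Fasl for NK against CD8 turned to -0.0845, Prf1 for regulatory against CD4 to 0.46, and Gzmb and Eomes for gamma-delta against CD4 to -1.93 and -0.51. Without the top 5% of UMIs, Tbx21 in T/NK-gated cells turned to -0.0156, Fasl in CD4-gated cells to 0.0433, Nkg7 in CD8-gated cells to -0.0435, and Gzma and Eomes for gamma-delta against CD4 to -0.65 and -0.80.

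With each set left out in turn, the genes called between regions ranged from 6 to 19 in T/NK-, 2 to 23 in CD4-, 468 to 3234 in microglia-, 3 to 9 in CD8- and 0 to 2 in NK-gated cells. In T/NK-gated cells Ifng ranged from -0.13 to 0.56, Fasl from -0.36 to 0.0558, Klrk1 from -0.37 to 0.60, Tbx21 from -0.13 to 0.24 and Eomes from -0.37 to 0.79, and in CD4-gated cells Fasl from -0.18 to 0.18. In NK-gated cells Gzmb ranged from -2.13 to 0.26, Prf1 from -0.16 to 0.32, Nkg7 from -0.10 to 0.23 and Eomes from -0.22 to 0.55. Ifng ranged from -0.22 to 0.23 for NK against CD8 and from -0.38 to 0.34 for CD8 against CD4, and Klrk1 from -0.91 to 0.97 for regulatory against CD4. For gamma-delta against CD4, Gzma ranged from -0.87 to 3.40, Gzmb from -0.43 to 0.89 and Eomes from -0.63 to 3.49. Differences in share, in percentage points, ranged from -1.30 to 2.27 for NK, -0.26 to 2.77 for CD8, -6.14 to 10.4 for gamma-delta and -1.62 to 1.04 for regulatory.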

Other observations

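Detection of members in the same T/NK-gated cells overlapped. Nkg7 was found in 134 of 137 cells with Eomes (97.8%) and in 106 of 116 cells with Gzmk (91.4%), and Eomes in 74 of 146 cells with Gzma (50.7%). Over the 31 sums of a set and class, the pattern of Prf1 was close to those of Eomes (Pearson r = 0.885) and Klrk1 (0.848), and Gzmb and Gzmk had r = 0.041. These are descriptions over sums that share sets and gates.

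In gamma-delta-gated cells Il23r was detected in 59.8%, against Tbx21 in 4.70% and Eomes in 0.427%. CD4-gated cells had Il17a in 30.7%, Tbx21 in 15.3% and Ifng in 14.2% of 733 cells.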
